A study of Homo sapiens with 6 samples.

Results

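Genes that bone morphogenetic protein (BMP) signalling is known to induce were followed in SH-SY5Y cells that over-expressed ERRγ, namely the 4 ID genes (ID1, ID2, ID3 and ID4) and the feedback genes SMAD6, SMAD7 and BAMBI. They were chosen by name, as the ID family with the listed feedback genes, and make up 7 of the 67060 genes in the count table, of which 24500 had enough counts to be tested. SH-SY5Y is a human neuroblastoma line of catecholaminergic character, and the series holds this line alone. The 3 treated libraries came from cells infected for 24 h with Ad CMV 3xFlag-Esrrg, an adenovirus in which the constitutive CMV promoter drives a Flag-tagged mouse coding sequence of Esrrg, the gene of the orphan nuclear receptor ERRγ. The 3 control libraries came from cells given Ad CMV GFP for the same time, so every library carried an adenovirus and a CMV-driven transgene. The labels give 0.5 µl of virus in both groups and no titre. Replicate numbers are 1, 3 and 4 among the controls and 2, 3 and 4 among the treated libraries. The labels do not say whether the replicates were separate cultures, so the p-values measure the spread between these libraries, which may be technical.

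BMP ligands bring together type I and type II receptor kinases, which phosphorylate SMAD1, SMAD5 and SMAD9. These enter the nucleus with SMAD4 and induce the ID genes. ID proteins are helix-loop-helix proteins that lack the basic region needed to bind DNA, so that they hold E proteins away from tissue-specific bHLH factors and delay differentiation. The same signal induces its own inhibitors. SMAD6 mainly restrains BMP receptors and SMAD1 complexes, SMAD7 restrains both BMP and TGF-beta receptors and is itself also induced by TGF-beta, and BAMBI is a membrane pseudoreceptor without a kinase domain. BMP signals are known for guiding neural crest cells towards sympathetic neurons, the lineage from which neuroblastoma arises.

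The called members went in both directions. SMAD6 fell 2.74-fold and ID4 1.84-fold, SMAD7 rose 2.07-fold and ID2 rose 1.79-fold, whereas ID1 and BAMBI were not called and ID3 is listed at 0 in every library. A gene was called when edgeR's quasi-likelihood test gave a Benjamini-Hochberg adjusted p below 0.05 over all tested genes with a fold change of at least 1.5. By this rule 2 of the 6 tested members were called higher, beside 17.3% of all tested genes, and 2 were called lower, beside 16.8% of all tested genes. In either direction 34.1% of all tested genes were called, and of these calls 50.7% were higher, or 22.5% when library size was the only scaling. The median log2 fold change was 0.05 over the 6 tested members and −0.10 over all tested genes. All members are protein-coding, and among the 13746 tested protein-coding genes 25.9% were called higher and 12.4% lower, with a median of 0.12.

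The promoters of SMAD6, SMAD7 and ID2, the called members with the most counts, are shown because the recognition sequences of SMAD proteins and of estrogen-related receptors can be searched in them. Each window runs from 250 bases before to 50 bases after a RefSeq start site (build GRCh38.p14), 5′ to 3′ on the strand of the gene, and capitals mark every match to 1 of 4 motifs searched on both strands. These were GTCTAGAC, the palindromic SMAD-binding element, CAGAC, the SMAD box (which GTCTAGAC does not contain), GGCGCC, the GC-rich element bound by SMAD1 and SMAD5, and AAGGTCA, an extended nuclear receptor half-site of the type that estrogen-related receptors bind. The bases before AAGGTCA were not part of the search, so a match is not by itself a full site for these receptors.
SMAD6 (chr15:66701986-66702285, plus strand): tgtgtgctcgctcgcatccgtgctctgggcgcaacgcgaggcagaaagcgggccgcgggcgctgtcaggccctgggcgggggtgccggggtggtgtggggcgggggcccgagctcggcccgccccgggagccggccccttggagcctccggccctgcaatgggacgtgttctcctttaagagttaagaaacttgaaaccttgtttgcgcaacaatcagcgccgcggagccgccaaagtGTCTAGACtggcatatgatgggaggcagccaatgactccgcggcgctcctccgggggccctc
SMAD7, upstream start (chr18:48950916-48951215, minus strand): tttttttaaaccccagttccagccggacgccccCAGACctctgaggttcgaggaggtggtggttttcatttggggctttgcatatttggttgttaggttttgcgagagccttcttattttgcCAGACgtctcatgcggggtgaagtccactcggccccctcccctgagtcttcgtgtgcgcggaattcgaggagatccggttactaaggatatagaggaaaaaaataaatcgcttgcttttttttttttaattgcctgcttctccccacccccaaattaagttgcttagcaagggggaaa
SMAD7, downstream start (chr18:48942758-48943057, minus strand): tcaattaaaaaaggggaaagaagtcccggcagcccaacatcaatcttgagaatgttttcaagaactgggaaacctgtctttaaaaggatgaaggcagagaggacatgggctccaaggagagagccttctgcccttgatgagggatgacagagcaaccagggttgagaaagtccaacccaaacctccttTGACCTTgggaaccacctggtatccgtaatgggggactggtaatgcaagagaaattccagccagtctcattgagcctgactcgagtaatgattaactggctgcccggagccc
ID2 (chr2:8681806-8682105, plus strand): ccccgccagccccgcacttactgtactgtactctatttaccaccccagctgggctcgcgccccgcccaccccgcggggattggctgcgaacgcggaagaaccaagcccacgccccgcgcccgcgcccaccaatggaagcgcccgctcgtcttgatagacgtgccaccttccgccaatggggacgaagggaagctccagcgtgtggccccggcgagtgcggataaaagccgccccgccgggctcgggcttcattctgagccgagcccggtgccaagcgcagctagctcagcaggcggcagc

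The SMAD6 window held the palindrome GTCTAGAC, starting at position −12 from the start site, and 0.193% of 34796 promoter windows of this length hold it. The upstream SMAD7 window held CAGAC at positions −217 and −128, a motif that 45.3% of all windows hold. The downstream SMAD7 window held AAGGTCA on the opposite strand at position −62, as 3.92% of all windows do. No other window of a member held AAGGTCA or GTCTAGAC. The ID1 and ID2 windows held none of the 4 motifs, and so the ID2 sequence is printed without capitals. Of the others, ID3 and ID4 held 1 CAGAC each, and BAMBI held 2 CAGAC and 3 GGCGCC. All 7 members matched a RefSeq window, with 3 windows for SMAD7 and 1 for each of the others. The third SMAD7 window, not printed, held 1 CAGAC on the opposite strand at position −193. These matches describe the letters of the windows alone, as sequence further from the start sites was not searched. They say nothing of binding in these cells.

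Reads counted on the human ESRRG gene, a check of the labels, numbered 2357, 2796 and 2876 in the Ad CMV GFP libraries and 15228, 25994 and 26497 in Ad CMV 3xFlag-Esrrg replicates 2, 3 and 4. The log2 fold change was 3.02 ± 0.14 (SE, n = 3; adjusted p = 6.3e-07, edgeR's quasi-likelihood test). Since the virus carries the mouse sequence, only reads that align to the human gene were counted here. Replicate 2 held less ESRRG than the other treated libraries, at 570 CPM (counts scaled to the normalized library size) beside 772 and 778. It also stood nearer the controls in the share of reads that HTSeq, the counting tool, assigned to no feature, called here the off-gene share. This was 46.6% beside 31.6% and 29.5%, where the controls held 51.3% to 52.2%. Reads in introns of annotated genes may be part of this share. Reads on genes numbered 24969759 to 29700980 in the controls and 26513620 to 40859666 in the treated libraries. The marker check detected 8 of 10 noradrenergic neuroblastoma markers, among them PHOX2A, GATA2, GATA3, HAND2, ISL1, DBH and CHGB, with TH and CHGA listed at 0, which is not read here as a lack of their RNA. All 10 mesenchymal and Schwann-like markers were also detected, COL3A1 with 67352 counts or more in each library. The summed level of the noradrenergic list was 719 to 780 CPM in controls and 544 to 717 in treated libraries, and that of the mesenchymal list 5385 to 5498 and 5937 to 6245. The mesenchymal sum rose with FN1, which was not called, at a mean of 1956 CPM in controls and 2691 in treated libraries. COL3A1 stood at 2602 and 2536. The median log2 fold change was −0.26 over the tested noradrenergic markers and −0.10 over the mesenchymal ones. Of the noradrenergic list PHOX2A was called higher and DBH and GATA2 lower, and of the mesenchymal list THY1 was called higher and 2 genes lower, COL1A2 among them. The part of these marker shifts in the values of the members was not tested, and the off-gene share was entered as a covariate in an alternative fit. The share was lower in every treated library than in any control, so this fit cannot tell it apart from the treatment. Within the treated group the share mainly sets replicate 2 apart from replicates 3 and 4. In these bulk libraries fewer cells expressing a gene and less RNA per cell cannot be told apart.

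**Figure D1:**
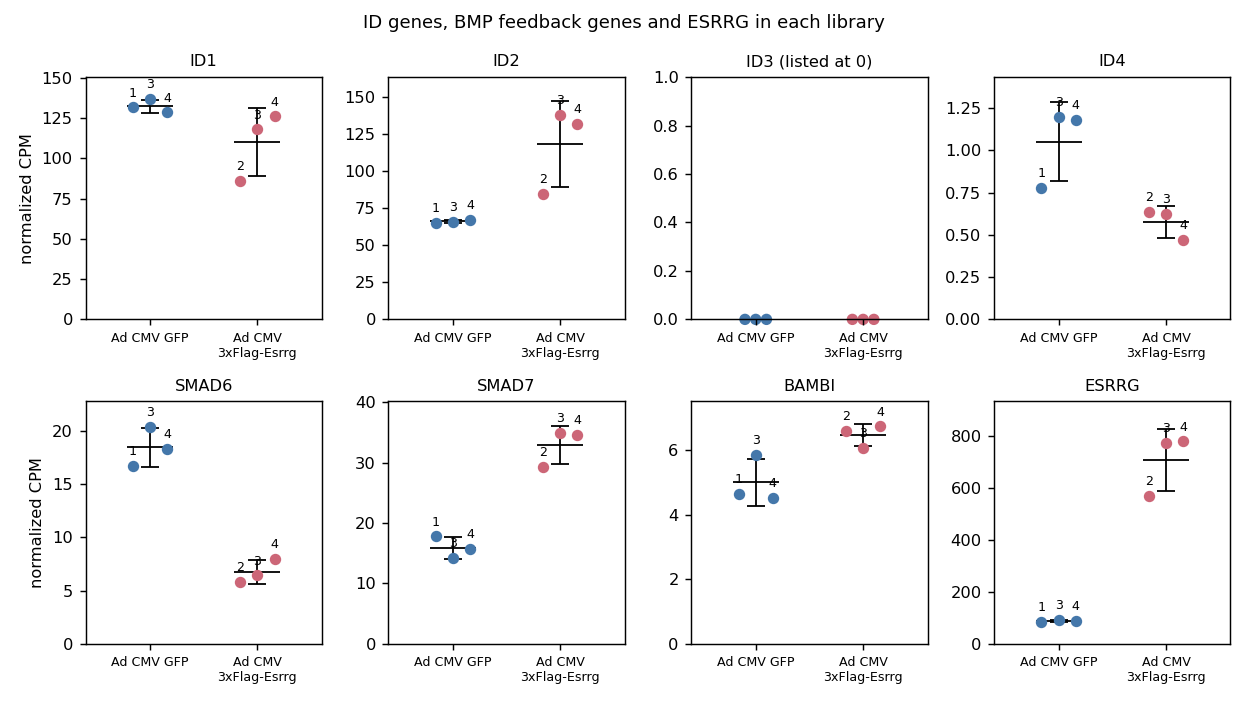
Normalized CPM of the 7 members and ESRRG (y axis, from 0) in each Ad CMV GFP (blue) and Ad CMV 3xFlag-Esrrg (red) library, numbered by replicate; horizontal lines and bars give the mean ± SD of 3 libraries. SMAD6 lies lower and SMAD7 higher in every treated library, at 16.7 to 20.3 against 5.80 to 7.95 and 14.2 to 17.8 against 29.4 to 35.0, whereas ID1 and ID2 of treated replicate 2 lay apart from replicates 3 and 4.

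Per length, ID1 was the most abundant member in both groups, with 107 ± 3.38 RPKM (normalized reads per kilobase of exon; SD, n = 3) in control cells, followed by ID2 at 29.9 ± 0.469, SMAD7 at 4.04 ± 0.456, BAMBI at 2.34 ± 0.342, SMAD6 at 2.16 ± 0.213 and ID4 at 0.272 ± 0.0607. Among these neighbours BAMBI and SMAD6 overlapped in the control libraries, and no other adjacent pair did. In treated cells the order was the same, with ID1 at 89.3 ± 17.1, ID2 at 53.4 ± 13.2, SMAD7 at 8.35 ± 0.792, BAMBI at 3.03 ± 0.164, SMAD6 at 0.786 ± 0.130 and ID4 at 0.149 ± 0.0239. There BAMBI and SMAD6 no longer overlapped. The lengths were unions of annotated exons, 8556 bases for SMAD6 and 2139 for BAMBI. The order of this pair in controls can change with the transcript length used.

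Among the ID genes, which encode the inhibitors of bHLH factors, ID1 (ENSG00000125968, GRCh38 chromosome 20, 31605283 to 31606515) had 3712, 4230 and 4253 counts in the control libraries and 2303, 3971 and 4296 in treated replicates 2, 3 and 4. On the normalized scale these were 132, 137 and 128 CPM against 86.1, 118 and 126. The groups did not overlap, as was the case for all 6 tested members and for 58.1% of all tested genes, but treated replicates 3 and 4 lay close below the controls. ID1 was not called, with a log2 fold change of −0.26 ± 0.13 (SE, n = 3; adjusted p = 0.13, edgeR's quasi-likelihood test). Without treated replicate 2 it was −0.01. By contrast, ID1 was called lower when library size was the only scaling, at −0.60 (adjusted p = 7.4e-04, edgeR), and with the off-gene share in the model, at −0.78 (adjusted p = 1.0e-06, edgeR).

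ID2 (ENSG00000115738, chromosome 2, 8678845 to 8684461) moved up. It had 1840, 2036 and 2227 counts in the control libraries, or 65.3, 65.8 and 67.3 CPM, which were close together. The treated libraries had 2267, 4639 and 4502 counts, or 84.8, 138 and 132 CPM, so that replicate 2 rose less than replicates 3 and 4 but still lay above every control. Its log2 fold change was 0.84 ± 0.16 (SE, n = 3; adjusted p = 0.0017, edgeR's quasi-likelihood test). It fell under 1.5-fold with library size as the only scaling (0.50) and after a correction for GC content and length (0.55), and was 0.16 (adjusted p = 0.32, edgeR) with the off-gene share in the model.

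The exons of ID2-AS1, a long noncoding RNA on the other strand, share 145 bases with ID2, which is 6.55% of the exon bases of ID2, and the strand setting of the counting is not given in the sources used here. ID2-AS1 had 193, 189 and 217 counts in controls and 202, 276 and 266 in treated libraries. Its log2 fold change was 0.27 ± 0.12 (SE, n = 3; adjusted p = 0.093, edgeR). These counts were about an order of magnitude below those of ID2.

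Within a library, the ratio of ID2 to ID1 counts does not depend on scaling between libraries. It was 0.496, 0.481 and 0.524 in Ad CMV GFP cells and 0.984, 1.17 and 1.05 in Ad CMV 3xFlag-Esrrg cells. The mean difference was 1.09 on the log2 scale, where the SD was 0.06 in controls and 0.13 in treated cells (n = 3), and treated replicate 2 lay with replicates 3 and 4. This pair, like the pair of inhibitory SMADs below, was chosen after its values were seen and is given without a test.

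ID4 (ENSG00000172201, chromosome 6, 19837370 to 19842197), the scarcest member with counts, was near the limit of what could be tested. It had 22, 37 and 39 counts in the control libraries and 17, 21 and 16 in the treated libraries. These were 0.780, 1.20 and 1.18 CPM against 0.636, 0.624 and 0.470, so control replicate 1 lay close to the treated range. A log2 fold change of −0.88 ± 0.29 (SE, n = 3; adjusted p = 0.029, edgeR's quasi-likelihood test) was called. The call was lost with DESeq2 (adjusted p = 0.074), with the off-gene share in the model (adjusted p = 0.45, edgeR), and in 4 of the 6 fits that left out 1 library. LNC-LBCS, which overlaps the ID4 locus on the other strand without sharing exon bases, had 53 to 64 counts in controls and 36 to 59 in treated libraries.

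ID3 (ENSG00000117318, chromosome 1, 23557926 to 23559501) is listed at 0 in all 6 libraries and could not be tested. The same held for its surroundings. In chromosome order the protein-coding genes HNRNPR, ZNF436, TCEA3, ASAP3 and E2F2 before it had 0 to 4 counts in any library, while RPL11 after it had 13141 to 26041 and ELOA had 2221 to 4506. HNRNPR encodes a splicing-related RNA-binding protein that nearly every cell makes. The listed 0 is therefore given without a limit on the level of ID3 in these cells. Of the 31-base words in the transcripts, 0 of 920 for ID3 and 90.2% for CHGA, which is also listed at 0, occur in the 261 alternate contigs of the reference used here. TH, likewise listed at 0, had 0 of 1880 words in them. LYPLA2, which lies near ID3, had 42.9% of its words in them and 1490 to 3993 counts. Whether the authors aligned to these contigs is not given in the sources used here, and the cause of the listed 0 was not tested.

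**Figure D2:**
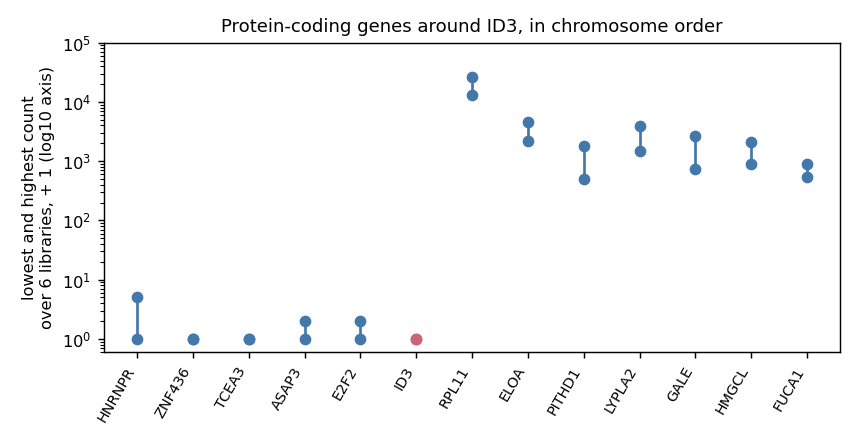
Lowest and highest count over the 6 libraries, each plus 1 (y axis, log10), of the protein-coding genes within 300000 bases of ID3, in chromosome order (x axis), with ID3 in red. HNRNPR through ID3 sit at 0 to 4 counts and RPL11 through FUCA1 at 494 to 26041.

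The feedback inhibitors SMAD6 and SMAD7 went in opposite directions. SMAD6 (ENSG00000137834, chromosome 15, 66702236 to 66782849) had 471, 629 and 606 counts in the control libraries and 155, 216 and 271 in the treated libraries. These were 16.7, 20.3 and 18.3 CPM against 5.80, 6.42 and 7.95, and every treated library lay far below every control. The log2 fold change was −1.45 ± 0.14 (SE, n = 3; adjusted p = 4.8e-05, edgeR's quasi-likelihood test). Across 16 other fits it ranged from −1.94 to −1.25 and was called lower in each. ENSG00000274995, a long noncoding RNA inside the SMAD6 gene body on the same strand with no shared exon bases, had 38, 39 and 28 counts in controls and 8, 8 and 6 in treated libraries. It was called lower as well (log2 fold change −2.27 ± 0.35, SE, n = 3; adjusted p = 4.7e-04, edgeR). Its reads cannot be told apart here from those of unspliced SMAD6 RNA.

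SMAD7 (ENSG00000101665, chromosome 18, 48919853 to 48950965) had 502, 440 and 521 counts in the control libraries and 785, 1177 and 1178 in the treated libraries. On the normalized scale 17.8, 14.2 and 15.7 CPM stood against 29.4, 35.0 and 34.6, so that the lowest treated library lay above the highest control. The log2 fold change was 1.05 ± 0.12 (SE, n = 3; adjusted p = 9.2e-05, edgeR's quasi-likelihood test). It was called higher in each of 16 other fits, with values from 0.62 after correction for GC content and length to 1.24 without treated replicate 2. SMAD6 and SMAD7 were also the members that passed a test against a 1.5-fold threshold, and those that passed a 2-fold cutoff.

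The ratio of SMAD7 to SMAD6 counts was 1.07, 0.70 and 0.86 in control libraries and 5.06, 5.45 and 4.35 in treated libraries. Its mean was 0.875 ± 0.184 in controls and 4.95 ± 0.559 in treated cells (SD, n = 3), a difference of 2.52 on the log2 scale. Divided by the union of annotated exons, SMAD7 exceeded SMAD6 in both groups. The ratio was then 1.90 ± 0.398 in controls and 10.7 ± 1.21 in treated cells. The union was 8556 bases for SMAD6 and 3946 for SMAD7, so the size of the excess in controls depends on the length used.

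**Figure D3:**
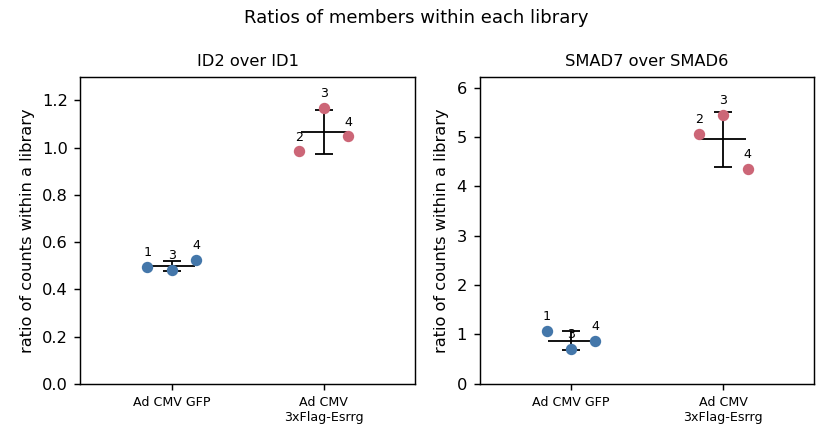
Ratio of ID2 to ID1 counts (left) and of SMAD7 to SMAD6 counts (right) within each library (y axes, from 0), numbered by replicate, with mean ± SD of 3 libraries. The control libraries (blue) lie at 0.481 to 0.524 and 0.70 to 1.07, and the treated libraries (red) at 0.984 to 1.17 and 4.35 to 5.45.

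BAMBI (ENSG00000095739, chromosome 10, 28677510 to 28682932), the decoy receptor, had 131, 181 and 150 counts in the control libraries and 177, 205 and 230 in the treated libraries. These were 4.65, 5.85 and 4.53 CPM against 6.62, 6.09 and 6.75, and control replicate 3 came close to the lowest treated library. The log2 fold change was 0.37 ± 0.15 (SE, n = 3; adjusted p = 0.063, edgeR's quasi-likelihood test), and BAMBI was called under none of 16 other fits. Its value was 0.05 with library size as the only scaling.

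**Figure D4:**
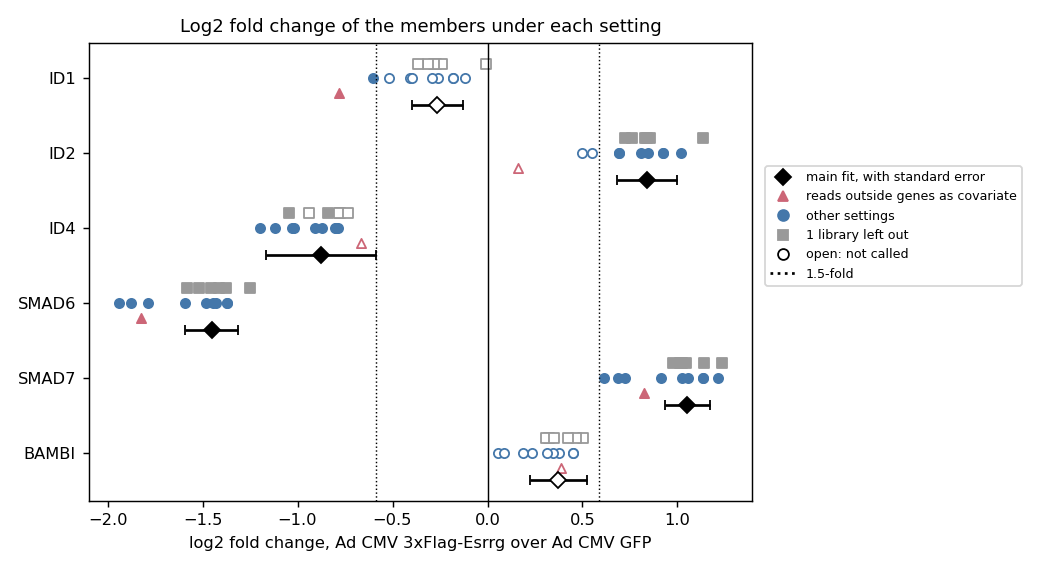
Log2 fold change of Ad CMV 3xFlag-Esrrg over Ad CMV GFP (x axis) for the 6 tested members (y axis) in the main fit (diamonds, with SE) and under 16 other fits; filled symbols were called, open symbols were not, and dotted lines mark 1.5-fold. All SMAD6 and SMAD7 symbols are filled, the values of ID2 run from 0.16 to 1.14, those of ID1 from −0.78 to −0.01, and no BAMBI symbol is filled.

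Upstream of the members, BMP pathway genes and the partners of ID proteins were taken as 101 genes in 9 lists, of which 75 could be tested. Of these, 13 (17.3%) were called higher and 20 (26.7%) lower, beside 17.3% and 16.8% of all tested genes and 25.9% and 12.4% of tested protein-coding genes, with a median log2 fold change of −0.05. The count called higher was 5 with the off-gene share as a covariate and 20 without treated replicate 2. Among the ligands, 2 of 9 tested genes were called higher and 3 lower. GDF6, a BMP-family growth factor, fell from 103 to 110 CPM to 40.1 to 46.4 (log2 fold change −1.30; adjusted p = 8.8e-06, edgeR), and BMP3, a ligand that opposes other BMPs, changed by −1.41, a call lost with the off-gene share as a covariate (−0.54). BMP7 was called at 0.83, but its groups overlapped and the value was −0.21 with that covariate. BMP2, at 4 to 10 counts in controls and 18 to 27 in treated libraries, was the other ligand called higher (log2 fold change 1.77; adjusted p = 0.0025, edgeR), and BMP8A (−0.63) was the remaining ligand called lower, but not in 6 of 16 other fits.

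Of the 9 tested receptors and coreceptors 1 was called higher and 2 lower. BMPR2, the main type II BMP receptor, had 245 to 286 CPM in controls and 136 to 174 in treated libraries (log2 fold change −0.81; adjusted p = 3.5e-04, edgeR), and its change was under 1.5-fold after correction for GC content and length (−0.55) and with the covariate (−0.50). BMPR1B (−0.62) and the coreceptor RGMA (0.67) were called, but not in 7 and 6 of 16 other fits. Of the 6 SMADs that carry the signal 3 were called lower, beside 16.8% of all tested genes and 12.4% of protein-coding ones, and none higher, beside 17.3% and 25.9%. SMAD9, which serves the BMP branch, fell from 127 to 136 CPM to 58.7 to 66.8 (log2 fold change −1.07; adjusted p = 2.6e-05, edgeR), a call kept in every other fit. SMAD2 (−0.69) and SMAD3 (−0.64), which serve the TGF-beta branch, were called lower too, each but for 3 of 16 other fits. SMAD1 (0.11) and SMAD5 (−0.26), also of the BMP branch, and SMAD4 (−0.53) were not called.

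Secreted antagonists and binding proteins, which hold ligands away from their receptors, were called higher in 3 and lower in 3 of 12 tested genes. FST (follistatin) had 15.0 to 16.7 CPM in controls and 30.7 to 40.6 in treated libraries (log2 fold change 1.17; adjusted p = 6.0e-05, edgeR), and DAND5, another secreted antagonist, 3.58 to 4.32 and 7.07 to 10.6 (1.16; adjusted p = 4.1e-04, edgeR). BMPER (−1.50) and the scarce CER1 (−1.59) were among those called lower. FSTL3 (1.09) was called except after the GC content and length correction (0.55). Among 12 intracellular regulators of SMADs, STUB1, a ubiquitin ligase (1.17, or 0.37 with the covariate), and TOB2 (0.71) were called higher, and PPM1A, a SMAD phosphatase (−0.79), and SKIL, a SMAD corepressor (−0.59), lower. Of 16 other fits these calls were lost in 1 for STUB1, 5 for TOB2, 2 for PPM1A and 8 for SKIL.

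Other transcription factors that BMP signals are known to induce also split. Of 9 tested, MSX2, a homeobox factor, rose from 2.09 to 3.10 CPM in controls to 7.52 to 10.3 in treated libraries (log2 fold change 1.86; adjusted p = 5.8e-05, edgeR), and JUNB was called higher at 0.98, but not with the covariate (0.34) or in the fits corrected for GC content and length (0.53, or 0.58 in the blocked one). ATOH8, a bHLH factor, fell from 30.5 to 35.1 CPM to 11.1 to 12.5 (log2 fold change −1.46; adjusted p = 8.1e-06, edgeR), and HEY1 fell from 38.1 to 39.9 CPM to 20.4 to 24.1 (−0.83; adjusted p = 1.2e-04, edgeR). The remaining 5 were not called. In the TGF-beta and activin list 2 of 9 were called higher and 3 lower. TGFB1, the best-known ligand of that branch, rose from 74.9 to 82.3 CPM to 129 to 177 (log2 fold change 0.97; adjusted p = 1.5e-04, edgeR). But it stood under 1.5-fold after correction for GC content and length (0.43, or 0.40 in the blocked fit) and with the covariate (0.58). TGFB3 (−0.75), INHBA (−0.74) and TGFBR1 (−0.63) were called lower, but not in 1, 2 and 8 of 16 other fits, respectively.

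The proteins that ID proteins bind were measured as well. None of the 3 E protein genes was called, with log2 fold changes of 0.36 for TCF3, −0.58 for TCF4 and −0.19 for TCF12. After the GC content and length correction they were −0.15 for TCF3, a change of sign, and 0.00 for TCF12, and TCF4 was called lower in 6 of 16 other fits. The tissue-specific bHLH factors, partners of the E proteins, comprised 17 genes, of which 6 could be tested. Of these, 1 was called higher and 2 lower. NEUROG2, a proneural factor, fell from 6.70 to 7.31 CPM in controls to 0.374 to 0.763 in treated libraries (log2 fold change −3.73; adjusted p = 4.5e-06, edgeR). HAND1 was called higher at 1.02, or 0.43 and not called with the covariate. The abundant factors HAND2 (−0.47) and TWIST1 (0.32) were not called.

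**Figure D5:**
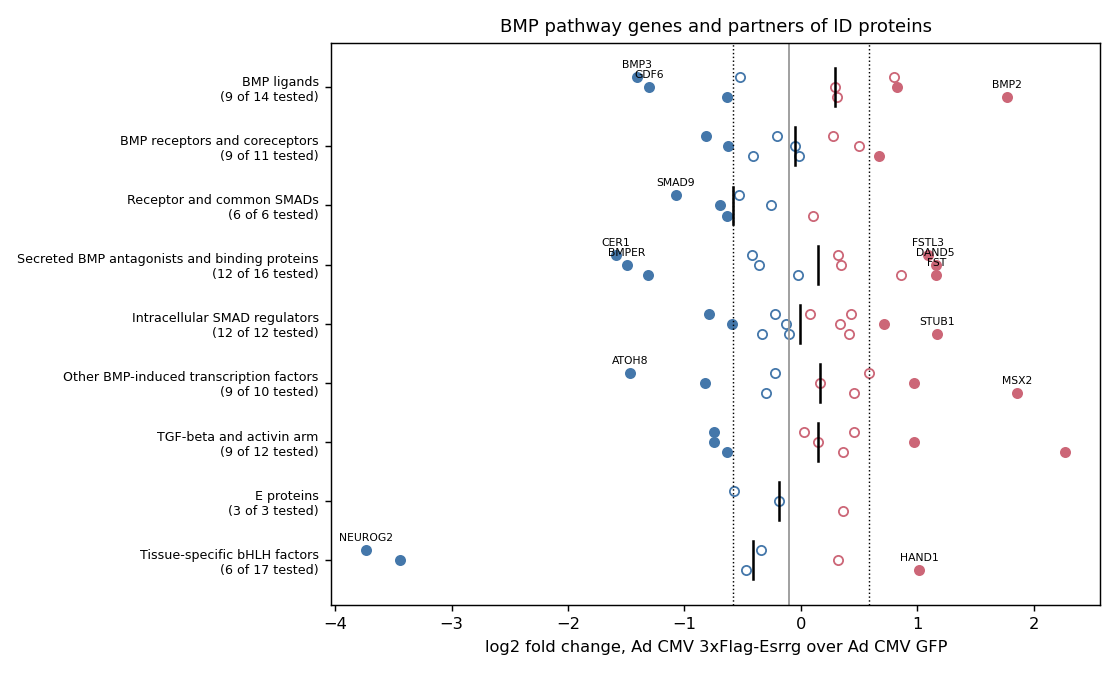
Log2 fold change of Ad CMV 3xFlag-Esrrg over Ad CMV GFP (x axis) for the tested genes of 9 lists of BMP pathway genes and ID protein partners (y axis); filled points were called, red for higher and blue for lower, short black lines give each list's median, the grey line the median of all tested genes, and dotted lines 1.5-fold. Calls fall on both sides in most lists, while the 6 signal-carrying SMADs have a median of −0.58 and the 12 antagonists one of 0.15.

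The profile of ID1, with treated replicate 2 lowest and the others near the controls, was compared with that of 8415 protein-coding genes of at least 500 counts per library on average. By the Euclidean distance of log2 CPM over the 6 libraries, each centred on its control mean, the nearest were PRXL2A (distance 0.143), SERPINE2 (0.152) and ZNF423 (0.157). ZNF423, a zinc finger partner of SMADs that was among the 12 intracellular regulators, had 22.3 to 24.6 CPM in controls and 15.5 to 21.3 in treated libraries, lowest in replicate 2. PRXL2A and SERPINE2 likewise had their lowest level in treated replicate 2, at 106 and 145 CPM. None of the 3 genes was called.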

How the data were processed

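Total RNA was depleted of ribosomal RNA and made into directional libraries, 3 per group. Per the labels, the authors used CASAVA, Trim Galore 0.6.7, STAR 2.7.9a, HTSeq 0.11.3 and build GRCh38. The deposited values are whole-number counts per gene from HTSeq. The 5 HTSeq summary entries were kept out of library sizes and tests. Of 67060 gene identifiers 60419 (90.1%) matched GENCODE 44, which gave names, lengths and positions, and the rest held 0.153% of counts. Genes passing filterByExpr were scaled by TMM and tested with edgeR 4.0.16 in R 4.3.3 (quasi-likelihood test, n = 3 per group, no covariate). The study's cutoff of 1.5-fold with adjusted p below 0.05 was used, where the study used DESeq2; here DESeq2 1.42.0 was an alternative. CPM are counts over the TMM-scaled library size, and RPKM divide these by the union of exons. In simulated counts 200 genes were changed, as many up as down. Of these, edgeR recovered 100 of 100 changed 4-fold and 79 of 100 changed 2-fold, with 10 false calls over 24145 genes. The simulation held no difference in off-gene share and fewer changed genes than were called here, so it gives no error rate for these data. Genes named from each list were up to 3 called per direction with the largest change and a mean of 50 counts or more per library, every gene of a list of 3 or fewer, neighbours of members, and 3 genes most like ID1. BMP2, BMPER, CER1, SMAD1, SMAD4, SMAD5, HAND2, TWIST1, the markers checked, the genes around ID3 and the ratios were added after their values were seen. Values of some genes that this rule names are not reported here. The members and lists were chosen with earlier results of these data known.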

Additional observations from a re-analysis of the deposited data

Results flagged for a closer look

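Reads that HTSeq set aside differed between the groups in all 6 libraries, a signal outside the counts used above. Ambiguous reads, which overlap more than 1 gene, made up 4.55% to 4.87% of all reads in the control libraries and at least 5.69% in the treated libraries, the highest being 9.84%. Reads aligned to more than 1 place made up 7.16% to 7.41% in the controls and at least 9.33% in the treated libraries, the highest being 13.0%. Treated replicate 2, in which ID1 was lowest and ID2 rose least, had the lowest share of both among the treated libraries. The part of these reads in the values of the members was not tested.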

How the results depend on the processing

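SMAD6, SMAD7 and ESRRG kept their direction and call in all 16 other fits, and no tested member changed sign. ID1 was called lower with library size only (−0.60) and with the off-gene share as a covariate (−0.78). That covariate was confounded with the group, being lower in every treated library than in any control. ID2 lost its call with library size only (0.50), the GC content and length correction (0.55) and the covariate (0.16). ID4 lost it with DESeq2 (−0.80) and the covariate (−0.66), and without control replicate 3 or 4 or treated replicate 3 or 4. With 1 library left out in turn the log2 fold changes ranged from −0.36 to −0.01 for ID1, 0.72 to 1.14 for ID2, −1.04 to −0.73 for ID4, −1.58 to −1.25 for SMAD6, 0.98 to 1.24 for SMAD7, 0.31 to 0.50 for BAMBI and 2.96 to 3.26 for ESRRG. The causes were not tested.

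Members called numbered 4, and 2 with a 2-fold cutoff or a test against a 1.5-fold threshold (1 higher and 1 lower in both). Members called higher were 1 with library size only, the GC content and length correction or the covariate, and members called lower were 1 with DESeq2. Leaving out 1 library gave 3 to 4 members called, 2 higher in each and 1 to 2 lower. Pathway genes called higher were 8 after the GC content and length correction with or without the replicate block, 5 with the covariate, 23 with no fold cutoff and 8 with a 2-fold cutoff, beside 13. Pathway genes called lower were 9 with a 2-fold cutoff and 10 with the threshold test, beside 20. With 1 library left out they ranged from 11 to 20 higher, the 20 without treated replicate 2, and from 16 to 22 lower.

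Over all tested genes 8351 were called, 50.7% of them higher. With library size only 9766 were called, 22.5% of them higher, and the median log2 fold change of all tested genes moved from −0.10 to −0.42. Relative to the median of all tested genes, ID1 stood at −0.18 with library size only and −0.16 with TMM scaling, and ID2 at 0.92 and 0.94. The calls numbered 3096 with the covariate, 5282 over protein-coding genes only, 3934 with a 2-fold cutoff and 3594 with the threshold test, where 61.4% were higher. Of the 39 genes named by rule, 16 had the same call in every fit, and BMP7, TCF3 and TCF12 changed sign in at least 1.

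The groups share the replicate numbers 3 and 4, and no source says what a number marks. The deviations of same-numbered libraries from their group means correlated at 0.075 and −0.00, and those of differently numbered ones at −0.13 to 0.14. With 3 libraries per group these correlations cannot decide whether a shared number marks a pairing. A fit with the number as a replicate block compares the groups within shared numbers, so its fold changes rest on replicates 3 and 4 alone. Libraries whose number occurs in a single group do not inform them, so this fit is not an adjustment over all libraries. Its log2 fold changes were −0.12 for ID1, 1.02 for ID2, −1.12 for ID4, −1.43 for SMAD6, 1.21 for SMAD7 and 0.31 for BAMBI. The same 4 members were called, as were 10435 of all tested genes. In the fit with the replicate block and the GC content and length correction ID2 was 0.69.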
